A study of Arabidopsis thaliana with 4 samples.

Results

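AT1G12010 and EIN3 are the 2 genes of the ethylene pathway described here, out of 13355 genes that a single-gene probe set measured by name on these arrays. AT1G12010 stands for synthesis and encodes an ACC oxidase, and EIN3 (AT3G20770) stands for signalling. Each had 1 probe set, taken by its locus code. The pair was chosen by the measured difference in signal between 24 h and 0 h, with its values already known, so that difference is given as a description and carries no test.

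Ethylene is a gaseous plant hormone that plants make from methionine through S-adenosylmethionine and ACC. ACC synthases make ACC, and ACC oxidases turn it into ethylene in the last step. Ethylene binds receptors of the ETR1 type, which then stop activating the kinase CTR1, and EIN2 passes the signal on to the nucleus. There EIN3 and its relative EIL1, transcription factors whose proteins are otherwise degraded through the F-box proteins EBF1 and EBF2, switch on response genes. In Arabidopsis the pathway is known for flower ageing and organ shedding, leaf senescence and stress responses.

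The tissue was immature inflorescences of the Ler-0 ecotype, cut from the primary bolts of plants aged 5 weeks. The 2 arrays of the group T0 (0 h) came from inflorescences frozen at harvest. The 2 arrays of the group T24 came from inflorescences kept in the dark for 24 h at 21 °C on wet paper in a black container. All plants were wild type with no agent added, both groups were detached, and 10 inflorescences were pooled for each time point. Darkness, the container and the time since cutting go together in T24 against T0 and cannot be told apart, and no ethylene measurement was used here. The series was labelled as a study of carbon deprivation in detached inflorescences.

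Values are log2 RMA signals, a scale on which 1 unit is a doubling, and they ran from 2.71 to 14.44 over the 22746 probe sets. Array medians lay between 6.08 and 6.29. RMA gives no detection call, so a signal under 5 is called near background here. Of 13 listed flower and inflorescence markers, 6 were measured by name. On each array 4 of the 6 had a signal of at least 5, and the meristem genes CLV3 and UFO stayed under 5 on all 4 arrays. Changes of these markers ran from -1.95 (AT5G07230, a tapetum gene) to 0.84 (SPT, a carpel gene), and 0 of 6 passed limma's adjusted p of 0.05, where 13.2% of all probe sets passed and 2 of the 6 lay under 5 throughout. None of the 6 had an unadjusted limma p under 0.05, while 6907 of all 22746 probe sets had one. With 6 genes, nothing is read from these counts. The part of these markers in the results below was not tested. In pooled tissue such as this, fewer cells of a type and less RNA per cell cannot be told apart.

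AT1G12010 was near background at T0 and among the brightest signals at T24. Its signal at T0 was 4.05 on replicate 1 and 4.07 on replicate 2. At T24 it was 12.84 on replicate 1 and 10.67 on replicate 2. The groups did not overlap, as for 27.4% of all probe sets in the direction of a higher signal at T24, and both T24 arrays lay at least 6.60 above both T0 arrays. The T0 mean was 4.06 ± 0.013 and the T24 mean 11.75 ± 1.53 (SD, n = 2 each). The change was 7.69 ± 0.78 (SE of the fit), or 207-fold. Of all 22746 probe sets, 1 had a larger rise, that of the seed storage protein gene PAP85. Both T0 means lay near background, so this rank is approximate.

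The direction of this difference was the same on both replicate numbers, and its size was not. T24 minus T0 was 8.78 for replicate 1 (440-fold) and 6.60 for replicate 2 (97.2-fold). Without T24 replicate 1 the change was 6.61 (97.8-fold), and without T24 replicate 2 it was 8.77 (437-fold). Because the T0 signal was near background, where RMA compresses differences, the fold is approximate. With every value under 5 raised to 5, a choice made after seeing the data, the change was 6.75 (108-fold), and 3 probe sets, PAP85 among them, had a larger rise.

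EIN3 was already well above background at T0 and was moderately higher at T24. Its signal at T0 was 9.59 on replicate 1 and 9.06 on replicate 2. At T24 it was 10.83 on replicate 1 and 10.81 on replicate 2. The groups did not overlap, as for 27.4% of all probe sets in the direction of a higher signal at T24. The nearest arrays of the groups were 1.22 apart. The T0 mean was 9.32 ± 0.38 and the T24 mean 10.82 ± 0.018 (SD, n = 2 each). The change was 1.50 ± 0.25 (SE of the fit), or 2.83-fold. T24 minus T0 was 1.25 for replicate 1 and 1.75 for replicate 2. A larger rise was found for 1622 probe sets, or 7.13% of all. Among the 2572 probe sets with a T0 mean of at least 9, 128 (4.98%), EIN3 among them, had a T24 minus T0 difference at least as large as that of EIN3.

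**Figure D1:**
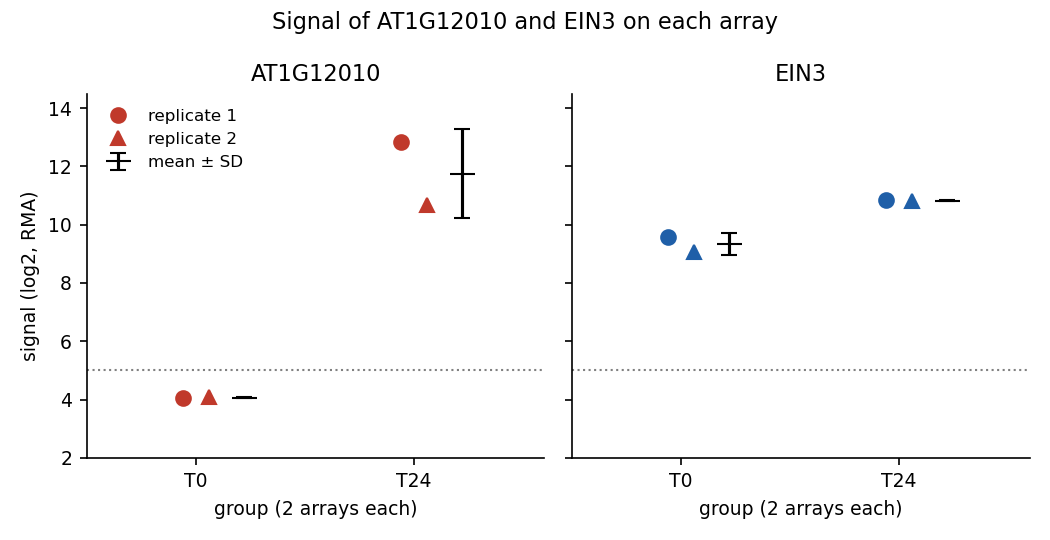
Signal (log2, RMA) of AT1G12010 (left) and EIN3 (right) on each array, by group, with circles for replicate 1, triangles for replicate 2, and black bars for the mean ± SD of 2 arrays. The dotted line marks a signal of 5: AT1G12010 lies below it at T0 and between 10.67 and 12.84 at T24, while EIN3 lies above it on every array.

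Both genes passed limma's adjusted p of 0.05 with a higher signal at T24, where 6.39% of all probe sets did so. Nothing is read from that count, since this contrast chose the genes. Leaving out any 1 of the 4 arrays left 0 of the 2 past the threshold, as it left 0 of all 22746 probe sets (4888 to 5942 had an unadjusted p under 0.05).

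The synthesis gene changed far more than the signalling gene on this scale. The change of EIN3 minus that of AT1G12010 was -6.19 from the group means. It was -7.53 for replicate 1 and -4.85 for replicate 2, values 2.69 apart. The T24 arrays of AT1G12010 and the T0 arrays of EIN3, both unequal, enter that gap together. Centring the arrays in another way adds the same amount to both genes and leaves this difference as it is. Because the T0 signal of AT1G12010 lay near background, this size is approximate too. With values under 5 raised to 5 it was -5.25.

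The basal signals put the genes at different places on the T0 arrays. On T0 replicates 1 and 2, 23.9% and 22.9% of probe sets had a signal below that of AT1G12010, against 91.9% and 89.7% for EIN3. At T24 these shares were 99.7% and 97.1% for AT1G12010, and 97.1% and 97.5% for EIN3. Probe sets differ in how well they bind their RNA, so these shares place a signal on its array and do not compare RNA amounts of the 2 genes. AT1G12010 was 1 of 13 probe sets that had a mean under 5 at T0, as 8258 had, and a mean of at least 10 at T24.

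**Figure D2:**
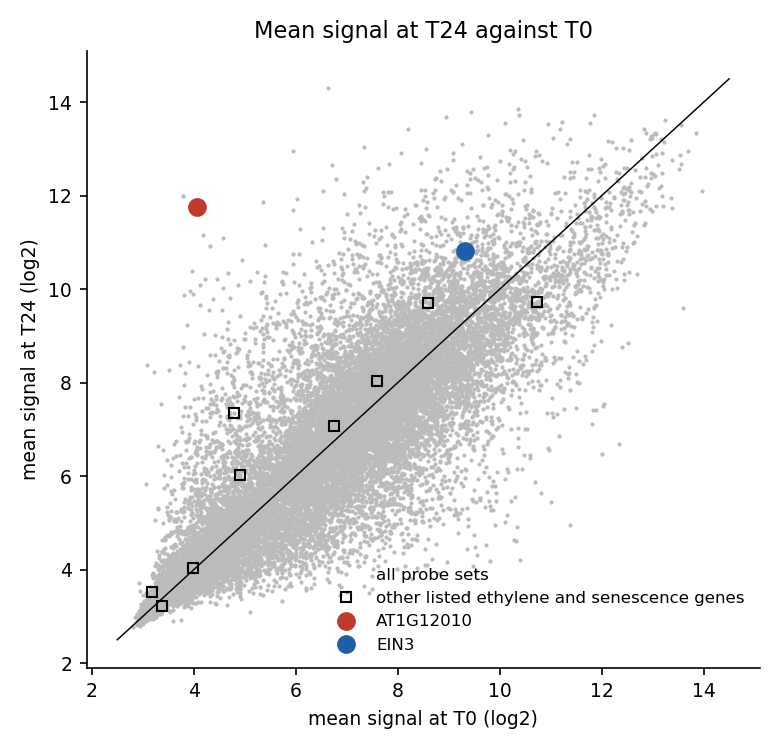
Mean signal at T24 against mean signal at T0 (log2, 2 arrays each) for all 22746 probe sets (grey), AT1G12010 (red), EIN3 (blue) and the other 9 listed genes (open squares), with the line of equal signal. AT1G12010 sits at 4.06 and 11.75, far above the line, and EIN3 at 9.32 and 10.82, near the upper edge of the main cloud.

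The genes also differed in where their replicates disagreed. AT1G12010 had nearly equal arrays at T0, 0.018 apart, and arrays 2.16 apart at T24, where replicate 1 was 4.47-fold the brighter. EIN3 had arrays 0.53 apart at T0, with replicate 1 the brighter (1.45-fold), and nearly equal arrays at T24, 0.025 apart. Over all probe sets the median distance between replicates was 0.32 at T0 and 0.28 at T24.

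Set against probe sets of like signal, the distance of AT1G12010 at T24 was unusual in size. Of 270 probe sets with a T24 mean within 0.5 of its own, 98.5% had replicates closer together, and their median distance was 0.33. At T0, 5.19% of the 4570 probe sets of like signal had replicates closer together than AT1G12010. For EIN3, 59.2% of 1619 probe sets of like signal had closer replicates at T0, and 3.21% of 560 had them at T24. A single distance per group is a weak measure of spread, and with 2 arrays a small one can arise without high precision.

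The 39 probe sets with a T24 minus T0 difference of at least 5 had a median T24 distance of 0.61, and 2 of them had a wider one than AT1G12010. Replicate 1 was the brighter T24 array for 28 of the 39, while over all probe sets the median of replicate 1 minus replicate 2 at T24 was -0.042. The flower markers differed between replicates in both directions. Replicate 1 minus replicate 2 at T0 and T24 was 2.00 and 2.85 for the tapetum gene AT5G07230, and 0.46 and 0.49 for AMS. It was 1.16 and -0.25 for SPL, and -1.13 and -0.73 for SPT. CLV3 and UFO, under 5 throughout, had 0.016 and 0.15, and -0.012 and -0.23. The part of these markers in the T24 spread of AT1G12010 was not tested.

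**Figure D3:**
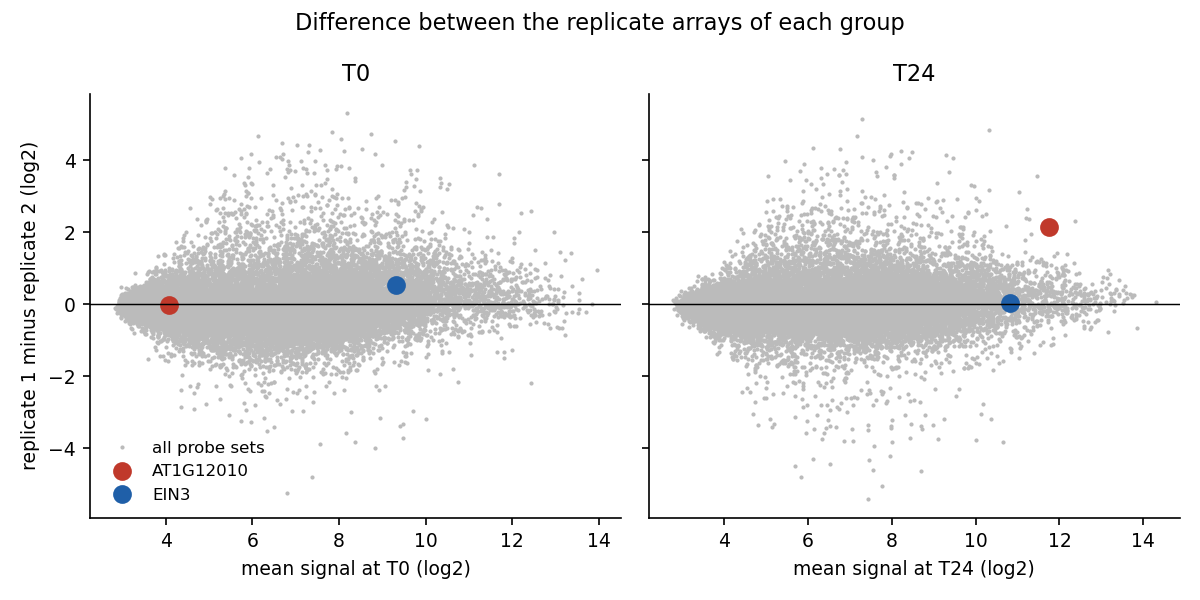
Replicate 1 minus replicate 2 (log2) against the mean signal of the group (log2), at T0 (left) and T24 (right), for all probe sets (grey), AT1G12010 (red) and EIN3 (blue). AT1G12010 lies on the zero line at T0 and at 2.16 at T24, and EIN3 lies at 0.53 at T0 and 0.025 at T24.

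Few other genes of the pathway were measured by name. Of 97 listed genes of ethylene synthesis, signalling, response and dark senescence, 11 were paired by name with a single-gene probe set, and 9 remained beside AT1G12010 and EIN3. Of these 9, limma called 1 higher and 0 lower, and 8 did not pass, at an adjusted p of 0.05, against 13.2% called over all probe sets in either direction. Their median change was 0.34, where the median of all probe sets was -0.0048. That median is the change of AT5G10120, whose signal lay near background. Of the 9, 3 had means under 5 in both groups. The other 4 listed ACC oxidases, all 9 ACC synthases, the 5 receptors, CTR1, EIN2, EIL1, EBF1 and EBF2 are not analysed here. A further 8730 probe sets carried no gene name in the annotation used and may include some of them.

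On the synthesis side, ARD4 was the other measured gene among 32. It encodes an acireductone dioxygenase of the methionine salvage (Yang) cycle, which recovers the methylthio group released when ACC is made. Its T0 arrays read 9.17 and 8.01 and its T24 arrays 9.93 and 9.50. The groups did not overlap, as for 27.4% of all probe sets in the direction of a higher signal at T24. The change of 1.13 ± 0.47 (SE) did not pass (limma's adjusted p = 0.209), and it was 1.70 without T0 replicate 1 and 0.55 without T0 replicate 2.

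Upstream of EIN3, RTE1, a membrane protein that acts on the receptor ETR1, stood at 7.55 and 7.63 at T0 and at 8.10 and 7.99 at T24. Its change of 0.45 ± 0.18 (SE) did not pass in limma (adjusted p = 0.192), although its arrays were close together within each group. ETP2, an F-box protein that targets EIN2 for degradation, stood at 6.62 and 6.90 at T0 and at 6.92 and 7.22 at T24, and its change was 0.32 ± 0.22 (SE; limma's adjusted p = 0.449), or 0.17 to 0.47 with 1 array left out (the lowest without T24 replicate 2, and 0.17 also without T0 replicate 1). For both, the groups did not overlap, as for 27.4% of all probe sets in the direction of a higher signal at T24. The nearest ETP2 arrays of the groups stood at 6.90 and 6.92. The changes of RTE1 and ETP2 were well under that of EIN3.

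In the EIN3 family list, the locus codes AT5G10120 and AT5G65100 were measured beside EIN3. Both lay under 5 on every array, with AT5G10120 between 3.17 and 3.64 and AT5G65100 between 3.04 and 3.54. Their changes of 0.34 ± 0.19 and -0.15 ± 0.24 (SE) did not pass in limma (adjusted p = 0.327 and 0.771). Near background such values do not tell a silent gene from a change too small to see. EIN3 was thus the family's 1 measured member with a signal over 5.

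Downstream of EIN3, PDF1.2 and PORB were measured out of 24 listed response and target genes. PDF1.2, a defensin gene that responds to ethylene and jasmonate together, lay near background on all arrays, between 3.80 and 4.27, with a change of 0.04 ± 0.25 (SE; limma's adjusted p = 0.950). PORB encodes a protochlorophyllide oxidoreductase of chlorophyll synthesis, and in Arabidopsis seedlings EIN3 is known to activate it. Its signal was 11.05 and 10.43 at T0 and 9.87 and 9.57 at T24, the reverse direction of EIN3. The change of -1.01 ± 0.30 (SE) did not pass in limma (adjusted p = 0.109). It did pass after quantile normalization (0.0430) and with the replicate number as a block (0.0321). Those settings passed 3151 and 6528 of all 22746 probe sets, against 3010 in the main fit. Over the limma refits that kept all 4 arrays, the adjusted p of PORB ran from 0.0321 to 0.170. With 1 array left out its change ran from -1.32 to -0.70.

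Among the listed regulators and markers of dark senescence, a process in which EIN3 is known to act in leaves, WRKY22 and WRKY53 were measured. WRKY22, a transcription factor known to act in dark-induced leaf senescence, rose from 4.43 and 5.16 at T0 to 7.89 and 6.83 at T24, by 2.56 ± 0.48 (SE) or 5.91-fold (limma's adjusted p = 0.0472). That call was lost with robust variances (adjusted p = 0.0512), with the replicate number as a block (0.0504) and without any 1 array (0.0900 to 0.144). WRKY53, which promotes leaf senescence, stood at 4.46 and 5.37 at T0 and at 5.71 and 6.36 at T24. Its change of 1.12 ± 0.43 (SE) did not pass in limma (adjusted p = 0.182), and it passed with the block (0.0255). The block passed 6528 of all probe sets, against 3010 in the main fit. Over the limma refits that kept all 4 arrays, the adjusted p of WRKY53 ran from 0.0255 to 0.190. The change was 0.67 without T0 replicate 1 and 1.58 without T0 replicate 2.

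**Figure D4:**
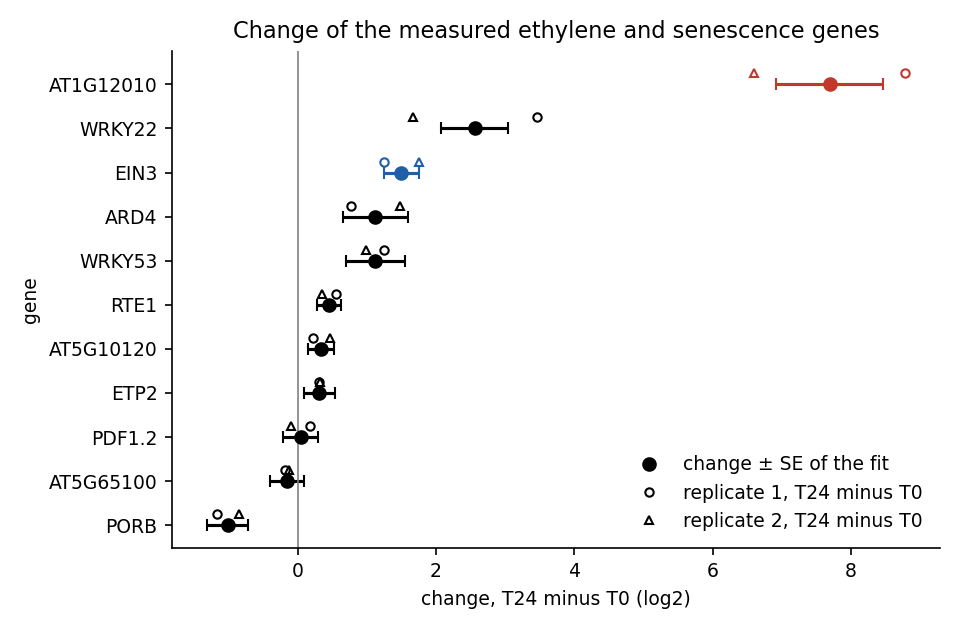
Change, T24 minus T0 (log2), of the 11 measured ethylene and senescence genes, with filled points and bars for the estimate ± SE of the limma fit, open circles for replicate 1 and open triangles for replicate 2. AT1G12010 stands alone at 7.69, WRKY22 and EIN3 follow at 2.56 and 1.50, and PORB is lowest at -1.01.

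The genes whose pattern over the 4 arrays was most like that of each member were taken from genes with a symbol, by the distance between signals after each gene was centred on its own mean. For AT1G12010 they were PAP85, a vicilin-like seed storage protein gene (distance 1.33), the linker histone gene HIS1-3 (1.91) and the beta-glucosidase gene BGLU45 (2.91). All 3 had T0 means under 5, as AT1G12010 had, and changes of 8.19, 6.61 and 5.45. None matched its T24 spread: replicate 1 minus replicate 2 was 0.75 for PAP85, -0.067 for HIS1-3 and -0.44 for BGLU45.

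For EIN3 they were AGL66, a MADS-box transcription factor gene of pollen (distance 0.13), the pectin methylesterase gene PMEPCRF (0.16) and the antenna protein gene LHCB4.2 (0.18). Their changes were 1.57, 1.43 and 1.61. Replicate 1 was the brighter T0 array in all 3, by 0.50, 0.50 and 0.57, as it was for EIN3. Such likeness follows from the choice by distance over these same arrays. These distances rest on 4 arrays and describe a shape only. Among all 22746 probe sets, other than the 2 genes themselves, 0 lay nearer to AT1G12010 than PAP85 did, and 5 lay nearer to EIN3 than AGL66 did. For the further genes these counts were 9 (HIS1-3) and 33 (BGLU45), and 9 (PMEPCRF) and 20 (LHCB4.2).

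**Figure D5:**
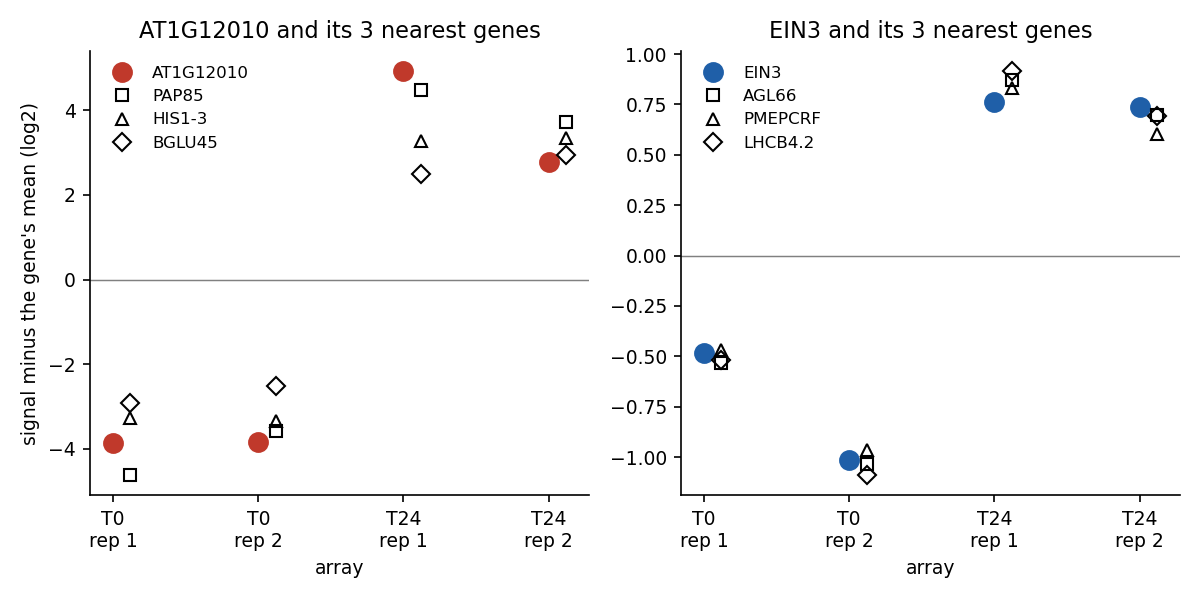
Signal minus the gene's own mean over the 4 arrays (log2) for AT1G12010 (left) and EIN3 (right), filled, and for the 3 genes with a symbol nearest to each, open symbols, on each array. The vertical scales differ: AT1G12010 and its neighbours span several log2 units, and EIN3 and its neighbours lie close together on every array.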

How the data were processed

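The authors deposited log2 signals for each probe set, made with RMA (version not given in the sources used here) according to the submitters' processing notes. That the base is 2 was inferred from how RMA reports and from the range of the signals. Groups and replicate numbers came from the sample titles, which call the replicates biological. How the 10 inflorescences of a time point relate to its 2 replicates is not stated, so a p-value covers the spread among these 4 arrays, and having 4 arrays limits the precision. Names came from the platform annotation, updated by gene identifier in the RefSeq table of TAIR10.1. Of 22746 probe sets, 13513 were paired with 1 gene and 503 with several, which were named for none.

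The contrast of T24 with T0 was fitted over the whole table, with no filter or covariate. It used limma 3.58.1 (lmFit and eBayes, R 4.3.3), with Benjamini-Hochberg adjustment over all probe sets. The fit was also run on simulated data with independent errors. Those lack the correlation of replicate differences between T0 and T24 given below. The genes and lists were chosen with earlier results of these data known. The rule for names took the 2 genes, every measured listed gene, and the 3 symbol-bearing genes nearest to each in centred profile. Alternatives were 2 variance models, 2 scalings, a filter at a mean of 5, the replicate block and leaving out each array, and, added later, a floor of 5 and centring on 3 reference genes.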

Additional observations from a re-analysis of the deposited data

How the results depend on the processing

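The changes of AT1G12010 and EIN3 and the difference between them kept their direction under every alternative run on them. Under the median, quantile and reference-gene scalings and the floor of 5, they moved by less than the replicate spread. The replicate block cannot move a change in this balanced design. With 2 arrays a group, leaving out 1 cannot move a gene's change by more than that spread, so those values give a range only. Leaving out 1 array gave 6.61 to 8.77 for AT1G12010, 1.23 to 1.77 for EIN3 and -7.26 to -5.12 for EIN3 minus AT1G12010. Centring each array on its median raised all changes by 0.16, to 7.85 and 1.66, quantile normalization gave 7.67 and 1.44, and reference-gene centring, added after seeing the data, gave 7.65 and 1.46. Of the 9 other listed genes, 1 was called. There were 2 calls after quantile normalization (WRKY22 and PORB), where 3151 of all 22746 probe sets passed. With the replicate block there were 2 (WRKY53 and PORB), where 6528 of all passed. With robust variances there were 0, where 2779 of all passed. Of all probe sets, 3010 passed, against 6528 with the replicate block and 0 without any 1 array, where few degrees of freedom remain and a lone array is assumed to vary like the other group. The replicate 1 minus replicate 2 differences of T0 and of T24 had a correlation of 0.63 over probe sets. With 2 pairs and no label that ties a number to a day or batch, the numbers were not taken as pairing. Signals under 5, as for AT1G12010 at T0, limit how exactly a fold can be given.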
